A study of Caenorhabditis elegans with 4 samples.

Results

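The loci described here lie on the X chromosome of Caenorhabditis elegans and were listed in the authors' deposited gene table under a single sequence name, the systematic name a gene carries before it receives a gene name. A locus was taken where its deposited position was on X, its name held no hyphen and no comma, and its level was at least 1 FPKM (a fragment count scaled by transcript length and by the mapped fragments of the library) in sig-7 RNAi or in control RNAi. The rule was met by 619 rows. They belong to 3963 sequence-named rows on X, 5328 rows of any name on X and 37812 rows in all. All 619 were tested by the authors, while 3344 sequence-named X rows stayed below 1 FPKM in both groups, 194 of them tested. The members were thus selected on the FPKM values of the comparison described below.

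RNA was taken from wild-type (strain N2) early embryos that mixed stages from 1 cell to 350 cells, collected by bleaching adults fed for 72 h. The compared groups were embryos of sig-7 RNAi (2 libraries) and embryos of control RNAi with L4440, the empty vector (2 libraries), and the strain and the embryo collection were the same in both. sig-7 encodes a nuclear cyclophilin, studied for its part in transcription elongation. In each deposited table a group has a single FPKM value that pools its 2 libraries. No value therefore has a standard deviation, library depth is unknown, and only the q-value of the authors' deposited table carries replicate error. Whether the 2 libraries of a group were separate cultures is not said in the labels, and that error may be technical.

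In C. elegans the hermaphrodite carries a pair of X chromosomes, and a condensin-containing dosage compensation complex binds both and lowers their transcription in the soma. X-linked genes are largely silent in the germ line through most of its development, so the oocyte loads comparatively little X-linked mRNA, and much X-linked RNA of the embryo is made after zygotic transcription begins. Sequence-named loci are a mixed class that holds protein-coding genes without an assigned gene name, short noncoding RNA genes, small nucleolar RNA genes and pseudogenes.

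The targeted gene checked the labels, with sig-7 at 8.72 FPKM in sig-7 RNAi and 39.8 FPKM in control RNAi. Over all genes the FPKM total was 1.69-fold higher in sig-7 RNAi. That total does not stand for most genes, since of 10703 tested genes 5496 were lower and 5207 higher in sig-7 RNAi. Very abundant RNAs weigh heavily in it. For example, 109 sequence-named small nucleolar RNA loci on the autosomes summed to 152040 FPKM in sig-7 RNAi and 51731 FPKM in control RNAi. Genes of late embryonic muscle and cuticle were lower in sig-7 RNAi, with all 4 listed (dpy-17, myo-3, sqt-3 and unc-54) called by the authors and a sum of 35.9 FPKM in sig-7 RNAi against 348.0 FPKM in control RNAi. Of 8 oocyte and early embryo genes, 0 fell and 1 rose (nos-2), with sums of 496.0 and 415.8 FPKM in sig-7 RNAi and control RNAi. Vitellogenin genes, markers of adult intestine, summed to 0.291 and 0.163 FPKM, and major sperm protein genes to 0.619 and 0.267 FPKM, with 0 tested genes in either list. Lower levels from fewer cells of a type and from less RNA per cell cannot be told apart in such whole-embryo RNA, and the part of embryo stage in the results below was not tested.

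Most sequence-named X loci were lower in sig-7 RNAi. A locus is said to have fallen or risen where the authors' deposited table gives it a q under 0.05. Of the 619 loci, 171 (27.6%) fell and 36 (5.82%) rose, while 17.3% of all 10703 tested genes fell and 11.2% rose. The log2 ratio used below sets sig-7 RNAi over control RNAi after 1 FPKM is added to either value, and so understates the change of low loci. Its median was -0.55 over the 619 loci, with quartiles of -1.20 and 0.12, and -0.03 over all tested genes. All tested genes include those under 1 FPKM. Among the 9209 tested genes at 1 FPKM or more, 18.3% fell and 12.9% rose, with a median of 0.05. At q under 0.01, 138 loci fell and 17 rose, beside 13.1% and 6.72% of all tested genes. In FPKM, 443 loci were lower and 176 higher in sig-7 RNAi. At least a 2-fold lower value was found in 270 of the 619 loci and at least a 2-fold higher value in 71 of the 619. Over all tested genes these shares were 28.7% and 8.9%, so both were larger among the X loci. The share of called rises was smaller among the X loci than over all tested genes. Since the FPKM floor used the same values, these counts are a description with no test.

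Among the called X loci, the falls were also the larger changes. Of the 171 loci that fell, 147 had lost at least 2-fold and 79 of these at least 4-fold, and 1 of them, C35B8.4 (now crb-3, a homologue of the apical polarity protein Crumbs), was at 1.88 FPKM in control RNAi and listed at 0 in sig-7 RNAi. Of the 36 that rose, 20 had gained at least 2-fold and 5 of these at least 4-fold, and these counts include F08F1.9, which was listed at 0 in control RNAi. crb-3 was named after its value was seen. With FPKM scaled to the same total in both groups, 25 of the 36 rises stayed above the control value and 11 did not, while a fall cannot turn. That scaling moved the median of all tested genes, a set without the FPKM floor, by -0.52. The median of the X loci lay 0.52 below that of all tested genes as deposited and 0.44 below it after scaling.

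On the autosomes, loci of the same kind were mostly not lower in FPKM as deposited. The rule applied to chromosomes I to V gave 4032 loci, of which 4008 were tested. Their median log2 ratio was 0.22, so that of the X loci was 0.77 lower. With FPKM scaled to the same total in both groups the autosomal median turned to -0.45 and that of the X loci was -1.0, so the direction on the autosomes rests on the scaling. Chromosome medians were 0.21 on I, 0.19 on II, 0.29 on III, 0.22 on IV and 0.16 on V. Falls took 8.70% of the loci on I, 12.5% on II, 9.16% on III, 10.7% on IV and 17% on V, each a lower share than on X. Rises took between 11.8% (chromosome I) and 15.2% (chromosome III), each a higher share than on X. With 1 pooled value a group, no test of the difference between chromosomes was made. Among X loci that carry a gene name in the deposited table and met the same floor, 284 of 560 (50.7%) fell and 20 rose, with a median of -0.70. Of autosomal loci with a gene name at that floor, 13.6% fell on I, 25.6% on II, 14.9% on III, 16.3% on IV and 23.2% on V. Their medians lay between -0.04 (chromosome II) and 0.15 (chromosome I).

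**Figure D1:**
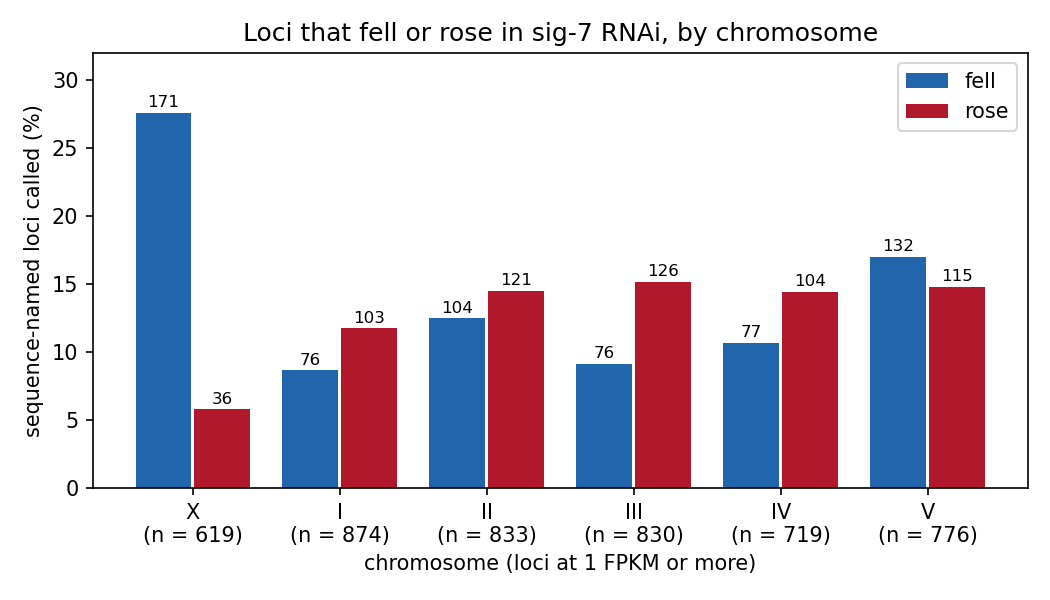
Percent of sequence-named loci at 1 FPKM or more that fell (blue) or rose (red) in sig-7 RNAi at an authors' q under 0.05, by chromosome, with the number of loci above each bar. X had 171 falls and 36 rises, while on chromosomes I to IV rises outnumbered falls.

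Along the chromosome the median over loci of all levels was below 0 in every 2 Mb bin. Bins were counted from the left end of the ce10 assembly by the midpoint of the deposited locus, and held 60 to 85 loci each. All 9 bin medians were below 0, between -0.32 and -0.78, and falls outnumbered rises in all 9.

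From left to right, the first bin (0 to 2 Mb) had a median of -0.41, with 16 of 60 loci fallen and 2 risen. From 2 to 4 Mb the median was -0.65, with 18 of 79 fallen and 3 risen. The lowest median, -0.78, was found from 4 to 6 Mb, with 20 of 70 fallen and 4 risen. The next bin was close to it. From 6 to 8 Mb the median was -0.75, with 22 of 64 fallen and 5 risen. From 8 to 10 Mb it was -0.60, with 22 of 63 fallen and 3 risen, and from 10 to 12 Mb -0.58, with 19 of 66 fallen and 4 risen. Falls took their largest shares, 34.4% and 34.9%, from 6 to 10 Mb, left of the centre and at the centre of the chromosome. From 12 to 14 Mb the median was the highest, -0.32, with 16 of 67 fallen and 6 risen. From 14 to 16 Mb it was -0.41, with 20 of 85 fallen and 5 risen, and in the rightmost bin, 16 to 18 Mb, -0.59, with 18 of 65 fallen and 4 risen. The spread within a bin was wider than the spread between bins. The quartiles ran from -1.05 to -0.02 in the first bin, from -1.25 to 0.01 in the bin with the lowest median and from -0.94 to 0.51 in the bin with the highest. The order of the bins depended on the loci and the scale. With a floor of 5 FPKM the lowest median was found from 16 to 18 Mb (-0.66) and the highest from 2 to 4 Mb (-0.31). With equal totals the lowest was found from 6 to 8 Mb (-1.10), and without a pseudocount from 2 to 4 Mb (-0.98). Among the 182 loci at a mean of 10 to under 50 FPKM, 8 of the 9 bin medians were below 0. There the bin from 2 to 4 Mb was at 0.01, with 2 of 19 fallen and 3 risen, those from 10 to 12 and 12 to 14 Mb were at -0.06 and -0.04, and the lowest was the rightmost, at -0.94, with 10 of 18 fallen and 1 risen. Across the 619 loci the rank correlation of position with the log2 ratio was 0.07 (Spearman's rho, given as a description, since loci share the libraries).

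**Figure D2:**
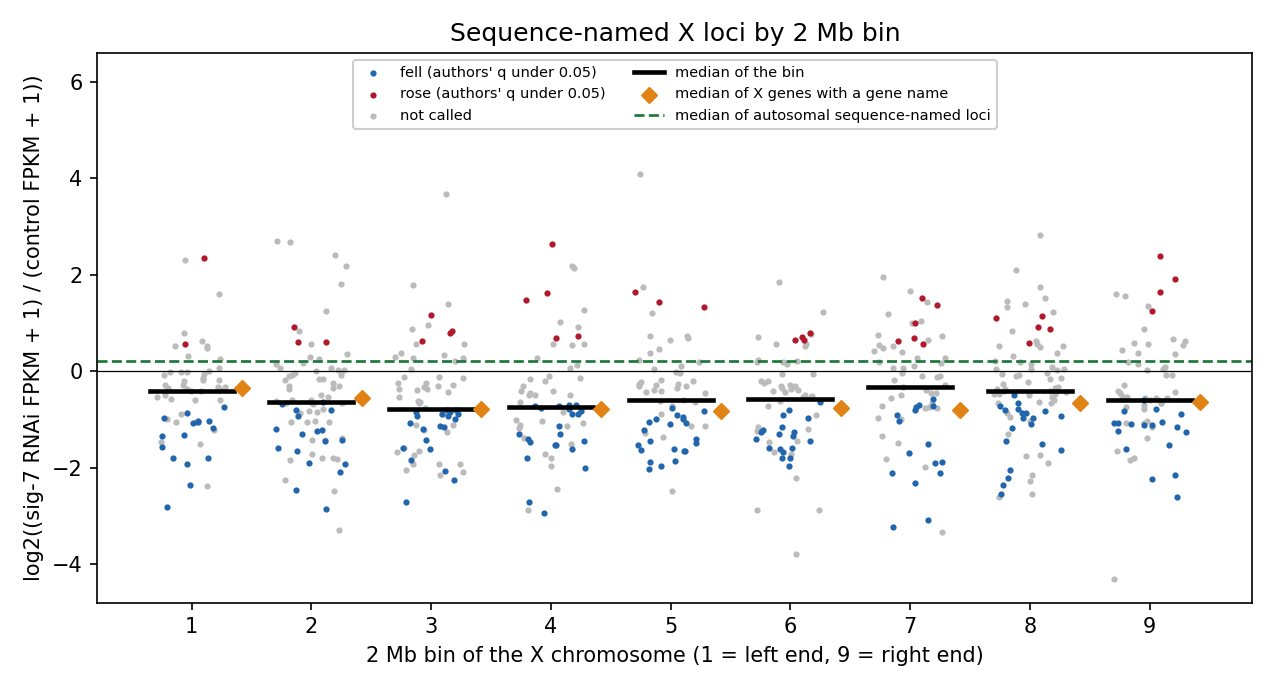
Log2 ratio (sig-7 RNAi over control RNAi, pseudocount 1 FPKM) of each of the 619 loci by 2 Mb bin of the X chromosome. Points are loci coloured by call, black lines are bin medians, orange diamonds are medians of X genes with a gene name, and the green dashed line is the autosomal median of 0.22. All 9 bin medians over loci of all levels lie below 0.

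X genes with a gene name gave bin medians between -0.36 (0 to 2 Mb) and -0.82 (8 to 10 Mb). In the first bin, 15 of 58 such genes fell and 5 rose, and in each of the other bins at least 39.4% fell. From 12 to 14 Mb, where the sequence-named median was the highest, genes with a name had a median of -0.81, with 25 of 52 fallen and 4 risen. The autosomes held 43 bins of the same size with at least 20 loci each, with medians between -0.48 and 0.42. Of these, 8 had a median below 0 and 2 lay below the highest X bin. The lowest was the bin from 20 to 22 Mb of chromosome V, with 32 loci. Falls outnumbered rises in 16 of the 43 autosomal bins.

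The ratio differed between level classes, with no steady order by the control level. Spearman's rho with the log2 ratio was -0.08 for control FPKM and 0.20 for the mean FPKM of both groups, as a description over the 619 loci, since these levels also enter the ratio. Among loci at 10 to under 50 FPKM in control RNAi, 78 of 203 fell and 17 rose, with a median log2 ratio of -0.49. The class from 5 to under 10 FPKM had a median of -0.39 (24 of 93 fallen, 7 risen), the class from 2 to under 5 FPKM -1.15 (33 of 128 fallen, 1 risen) and the class from 1 to under 2 FPKM -0.70 (30 of 128 fallen, 0 risen). The 23 loci at 50 FPKM or more in control RNAi stood apart, with a median of 0.28, 6 fallen and 8 risen. The 44 loci under 1 FPKM in control RNAi had a median of 1.24; they met the rule only through sig-7 RNAi, which selects high ratios, while 184 loci met it only through control RNAi. The control value enters both the class and the ratio, so classes by the mean of both groups are given next.

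By the mean FPKM of both groups, the medians were -0.81 under 1 FPKM (91 loci), -0.88 from 1 to under 2 (124 loci), -0.74 from 2 to under 5 (106 loci), -0.50 from 5 to under 10 (95 loci), -0.29 from 10 to under 50 (182 loci) and 0.65 at 50 and above (21 loci). The 91 loci under 1 FPKM each met the floor only through their higher group, as did the autosomal loci of that class, so their ratios are shaped by the rule. From the class of 1 to under 2 FPKM upward, each class had a higher median than the one below it. Autosomal sequence-named loci in the same classes had medians of -0.71, -0.43, -0.35, -0.03, 0.32 and 0.64. The X medians were below the autosomal ones in the first 5 classes and close to the autosomal one in the top class. From 10 to under 50 FPKM, 30.8% of X loci fell and 12.1% rose, against 7.10% and 16.2% of autosomal loci. From 5 to under 10 FPKM, 35.8% of X loci fell, against 18.9% of autosomal loci. The median level in control RNAi was 5.46 FPKM over the X loci and 12.6 FPKM over the autosomal loci, which is why the chromosomes are compared within classes.

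**Figure D3:**
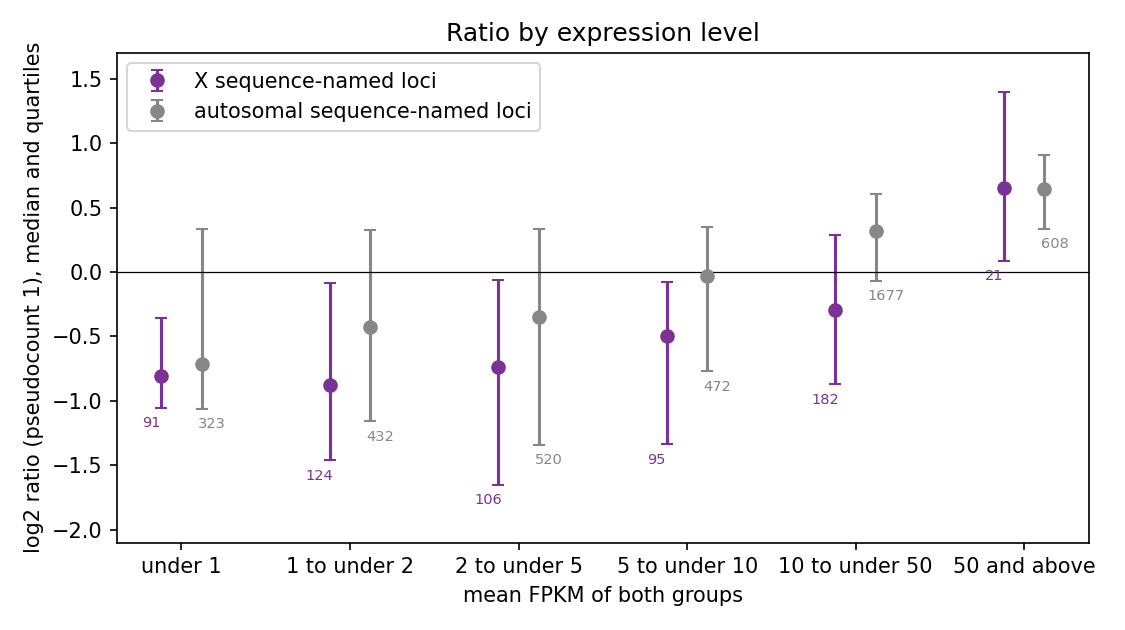
Median (points) and quartiles (bars) of the log2 ratio (sig-7 RNAi over control RNAi) by the mean FPKM of both groups, for X sequence-named loci (purple) and autosomal ones (grey), with the number of loci below each bar. The X median is -0.29 and the autosomal median 0.32 from 10 to under 50 FPKM, and both are close to 0.65 at 50 FPKM and above.

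The 12 loci with the largest falls in log2 ratio were all annotated as protein-coding and lay in 7 of the 9 bins. Of these, 4 carry a gene name in the current annotation. C29F7.2 (13416016 to 13418033 on X, ce10) was at 3.64 FPKM in sig-7 RNAi and 42.3 FPKM in control RNAi, 11.6-fold lower, with q listed as 0. M153.1 (12146777 to 12148182), now pycr-1 after pyrroline-5-carboxylate reductase, the enzyme of the last step of proline synthesis, was at 1.2 FPKM in sig-7 RNAi and 17.7 FPKM in control RNAi, 14.7-fold lower. C14F11.6 (6238195 to 6239022), now rml-3, was at 1.69 and 19.7 FPKM in sig-7 RNAi and control RNAi, with an authors' q of 3.67e-13. These 3 loci were between 11.6-fold and 14.7-fold lower. K10B3.1 (3135495 to 3136422) was at 1.53 FPKM in sig-7 RNAi and 17.4 FPKM in control RNAi, with a q of 0.0082. C44C1.1 (980792 to 982932), the largest fall of the first bin, was at 1.84 FPKM in sig-7 RNAi and 19.2 FPKM in control RNAi. W05H9.1 (6272054 to 6273649), now lro-1, was at 2.29 FPKM in sig-7 RNAi and 20.6 FPKM in control RNAi. All of these had control levels above the median of 5.46 FPKM, which falls this large in log2 ratio with the pseudocount require.

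Of the other large falls, T22B7.3 was at 1.24 FPKM in sig-7 RNAi and 13.6 FPKM in control RNAi (10.9-fold lower), and F39F10.4 at 4.97 and 35.6 FPKM (7.17-fold lower). The deposited locus of F39F10.4 spans 317 bp of an annotated 1327 bp, so its value may stand for part of the gene. C33G3.4 had the highest control level among the 12 falls, at 6.97 FPKM in sig-7 RNAi and 45.9 FPKM in control RNAi. F53H8.3 had the lowest, at 0.680 FPKM in sig-7 RNAi and 7.62 FPKM in control RNAi. F59F4.2, now serp-1.1, was at 7.48 and 42.5 FPKM in sig-7 RNAi and control RNAi. T24C12.3, at 2.07 FPKM in sig-7 RNAi and 16 FPKM in control RNAi (q = 0.0129), lies in a deposited locus that 90 gene rows share, so its value is less certain. The bins with another leading change were 8 to 10 Mb, led by F19C6.5 at 0.112 FPKM in sig-7 RNAi and 3.57 FPKM in control RNAi (31.8-fold lower), and 10 to 12 Mb, led by F38B2.4 at 0.901 and 6.47 FPKM. In each of the 9 bins the called locus with the largest change in log2 ratio was a fall. The order rests on the pseudocount. As plain ratios, the falls of F19C6.5 (31.8-fold), R07E3.7 (18.0-fold), C10A4.3 (15.5-fold) and R09F10.1 (14.8-fold) exceeded that of M153.1, and the largest called ratio from 14 to 16 Mb was a rise, that of C09G1.3, in place of the 9.32-fold fall of C05G5.5. R07E3.7, C10A4.3, R09F10.1, C09G1.3 and C05G5.5 were named after their values were seen.

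**Figure D4:**
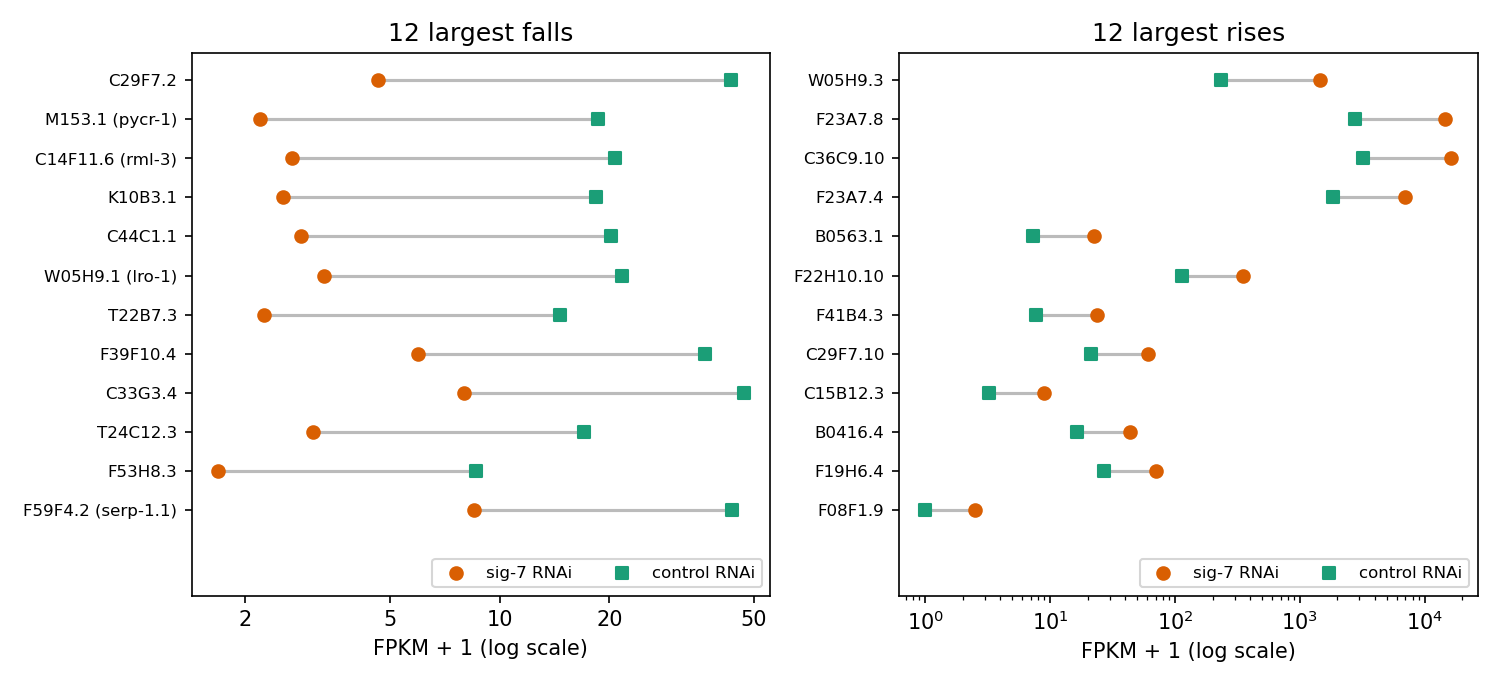
FPKM + 1 on a log scale in sig-7 RNAi (orange circles) and control RNAi (green squares) for the 12 called loci with the largest falls (left) and the 12 with the largest rises (right), ordered by log2 ratio. The falls start from control levels of 7.62 to 45.9 FPKM, and 5 of the rises are above 100 FPKM in both groups.

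In log2 ratio the rises were led by 4 short loci, each annotated with a single exon. As a plain ratio the rise of the pseudogene C09G1.3 was larger, at 1.38 FPKM in sig-7 RNAi and 0.0978 FPKM in control RNAi (14.1-fold, q = 0.0436). W05H9.3 (6252434 to 6252571), annotated as a noncoding RNA gene, was at 1458 FPKM in sig-7 RNAi and 232.7 FPKM in control RNAi, 6.27-fold higher, and its deposited locus covers 138 bp of an annotated 1512 bp. The coding gene F23A7.8 (16213301 to 16213504) was 5.26-fold higher, at 14528 FPKM in sig-7 RNAi and 2763 FPKM in control RNAi. The noncoding RNA gene C36C9.10 (1681747 to 1681881) was 5.10-fold higher, at 16275 and 3189 FPKM. F23A7.4 (16212534 to 16212740), beside F23A7.8, was 3.78-fold higher, at 6963 FPKM in sig-7 RNAi and 1840 FPKM in control RNAi. These 4 loci and F59C12.4, which did not pass the test at 2436 FPKM in sig-7 RNAi and 1614 FPKM in control RNAi (q = 0.0563), were the 5 highest in both groups. They held 87.1% of the summed FPKM of the 619 loci in sig-7 RNAi and 58.5% in control RNAi. FPKM divides by length, so a short RNA reaches a given value with fewer fragments than a long one, and the fragment counts of these loci are unknown. Without these 5 loci the sums were 6147 FPKM in sig-7 RNAi and 6845 FPKM in control RNAi, whereas with them they were 47808 and 16484 FPKM.

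Rises at lower levels included spliced coding genes. B0563.1 was at 21.7 FPKM in sig-7 RNAi and 6.26 FPKM in control RNAi (3.46-fold), F41B4.3 at 22.8 and 6.71 FPKM (3.40-fold), and C29F7.10 at 60.1 and 20.3 FPKM (2.97-fold). B0416.4 was at 42.9 FPKM in sig-7 RNAi and 15.3 FPKM in control RNAi (2.80-fold), and F19H6.4 at 69.1 and 25.9 FPKM (2.67-fold). C15B12.3, a single-exon gene of 279 bp, was at 7.97 FPKM in sig-7 RNAi and 2.25 FPKM in control RNAi, with a q of 0.0494 just under the threshold. The noncoding RNA gene F22H10.10 was at 352.5 FPKM in sig-7 RNAi and 112.3 FPKM in control RNAi. F08F1.9 was at 1.51 FPKM in sig-7 RNAi and listed at 0 in control RNAi, so no fold is given. All of these lay above the control by more than the 1.69-fold difference of the totals, apart from F08F1.9, for which no fold can be given. Their choice as the largest rises in log2 ratio fixed this, and among all 36 rises 11 did not exceed that difference.

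The top level class was divided by the length of the locus. Among the 21 loci with a mean of at least 50 FPKM, the 11 with a deposited locus of up to 500 bp had a median log2 ratio of 1.40, with 7 risen and 0 fallen. The 10 longer ones had a median of 0.09, with 2 risen and 2 fallen. Autosomal loci at that level had medians of 0.79 up to 500 bp (97 loci) and 0.61 above (511 loci). The median of the longer X loci was thus below the autosomal one, and that of the short ones above it. The longer risers were C07D8.6, at 115.0 FPKM in sig-7 RNAi and 70.9 FPKM in control RNAi, and F08G12.2, at 107.3 and 67.8 FPKM. The fallers were F53B3.5, at 30.0 FPKM in sig-7 RNAi and 92.4 FPKM in control RNAi, and F13E6.1, at 35.0 and 69.0 FPKM. C07D8.6 and F53B3.5 were named after their values were seen.

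In the coding loci, falls were more frequent the more exons a gene had. Of 606 loci matched to the WBcel235 annotation by name, 478 were protein-coding, 106 noncoding RNA genes, 11 small nucleolar RNA genes and 9 pseudogenes. Of the coding loci, 167 (34.9%) fell and 32 (6.69%) rose, with a median of -0.54, against 12.8% and 15.6% of 3478 autosomal coding loci, with a median of 0.22. Of 13 coding loci with 1 exon, 0 fell and 5 rose, with a median of 0.83. With 2 to 3 exons 11 of 74 fell and 8 rose (median -0.04). With 4 to 6 exons 50 of 165 fell and 12 rose (median -0.52). The shares of falls went on upward from there. With 7 to 10 exons 61 of 134 fell (45.5%) and 4 rose (median -0.73), and with 11 or more 45 of 92 fell (48.9%) and 3 rose (median -0.65). The median thus did not go on downward in the last class. On autosomes the shares of falls were 10%, 9.49%, 11.9%, 15.1% and 20.6% over the same classes. Mature length gave a like order on X, with 8.33% fallen up to 500 bases, 18.5% over 500 to 1000, 39.2% over 1000 to 2000, 50.6% over 2000 to 3000 and 46.8% above. Exon number goes with transcript length, and the part of length in the number of calls was not tested. The rank correlation of exon number with the log2 ratio, which does not use q, was -0.25 over the 478 coding loci, as a description.

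**Figure D5:**
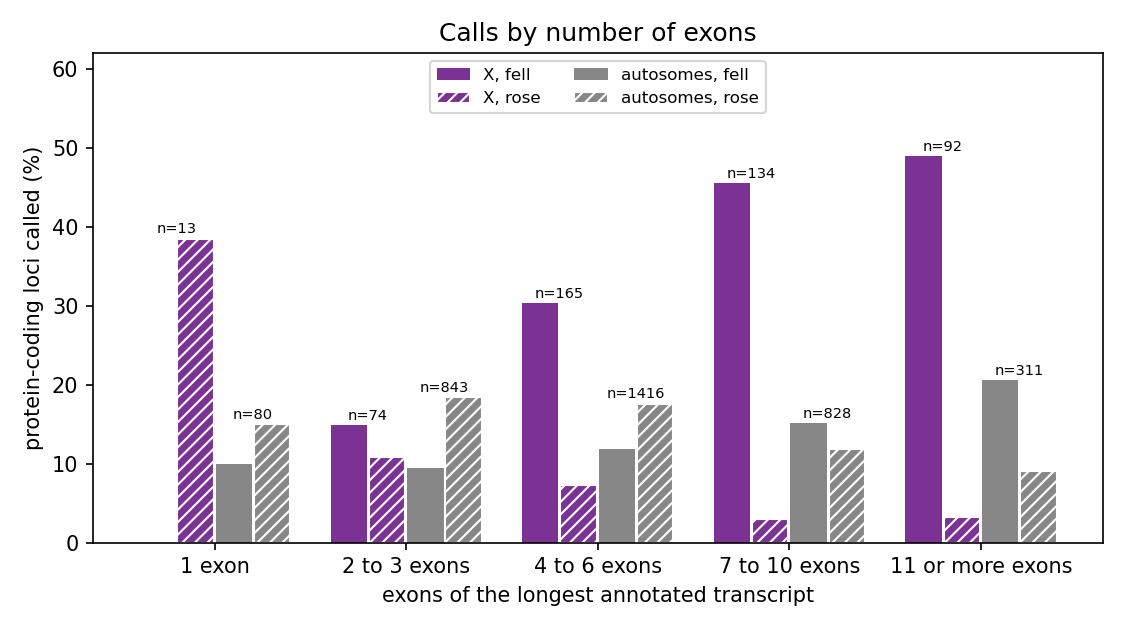
Percent of protein-coding sequence-named loci that fell (plain bars) or rose (hatched bars) by the number of exons of the longest annotated transcript, for X (purple) and autosomes (grey), with the number of loci above the taller bar. On X the share of falls is 0 among 13 single-exon loci and 48.9% among 92 loci with 11 or more exons.

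Taken at like level, the X median lay lower relative to the autosomal one in genes with 4 or more exons than in genes with 1 to 3, in each of the 6 level classes. From 10 to under 50 FPKM (mean of both groups), 141 such X loci had a median of -0.37, against 0.31 for 1270 autosomal loci, and 34.0% against 7.17% fell. From 5 to under 10 FPKM, 71 X loci had a median of -0.60 and 334 autosomal loci one of -0.01. For genes of 1 to 3 exons the X median was below the autosomal one only from 1 to under 2 and from 10 to under 50 FPKM. In the other classes it was above the autosomal one. From 10 to under 50 FPKM, 32 X loci had a median of 0.14 and 318 autosomal loci one of 0.44. From 2 to under 5 FPKM, 14 X loci had a median of -0.29 and 122 autosomal loci one of -0.31. The classes of few exons hold few X loci, and the difference between exon classes was not tested.

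Few noncoding RNA loci were called. Of the 106, 73 were lower and 33 higher in sig-7 RNAi, 1 fell and 3 rose. Their median was -1.05 with quartiles of -1.75 and 0.96, and 71 of them were listed at 0 in 1 group. Those 71 met the floor only through the other group, so the rule itself sets a log2 ratio of at least 1 in either direction for them. Of 301 autosomal noncoding RNA loci of the same rule, 161 were lower and 140 higher, 5 fell and 9 rose, with a median of -0.11. On X, over all 619 loci, 81 were listed at 0 in 1 group. Of those 81, 2 were called. The median deposited level of the 106 was 0.131 FPKM in sig-7 RNAi and 1.62 FPKM in control RNAi. Of the 106 loci, 67 shared their deposited locus with another row, so reads of a host or neighbouring gene and of the noncoding RNA may not be separated. The 11 small nucleolar RNA loci had a median of 0.80 with 0 calls, among them T09B9.10 at 181.8 FPKM in sig-7 RNAi and 78.1 FPKM in control RNAi (q = 0.0612). On the plus strand 75 of 286 loci fell, and on the minus strand 93 of 320.

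Since the table was made, 90 of the loci have received a gene name in the current annotation, which gives a view of their functions. Of these 90, 37 fell (41.1%) and 5 rose (5.56%), with a median log2 ratio of -0.65, against 134 of 529 fallen and 31 risen among the other loci. These sets also differ in level and RNA class. The median control level was 10.2 FPKM in the 90 and 4.74 FPKM in the others, and the 90 were nearly all protein-coding. Over all loci of the rule, 34.9% of the coding ones and 1 of 106 noncoding RNA loci fell. The part of level and class was not tested. The genes named in this paragraph and the next were chosen after their values were seen. The falls included dhcr-24 (F52H2.6), named after a sterol reductase, at 0.547 FPKM in sig-7 RNAi and 5.58 FPKM in control RNAi. acox-1.6 (F59F4.1), of the acyl-CoA oxidase family that acts in peroxisomal beta-oxidation, was at 0.357 FPKM in sig-7 RNAi and 3.21 FPKM in control RNAi. pks-1 (C41A3.1), a polyketide synthase gene, was at 0.305 and 1.29 FPKM. The next 3 falls have known or inferred roles in trafficking or transport. lyst-1 (T01H10.8), the homologue of the human lysosomal trafficking regulator, was at 0.808 FPKM in sig-7 RNAi and 8.0 FPKM in control RNAi (9.91-fold lower). sec-16A.2 (F13B9.1), of the SEC16 family of endoplasmic reticulum exit sites, was at 17.7 and 36.2 FPKM. zipt-13 (C14H10.1), of the ZIP family of zinc transporters, was at 0.545 FPKM in sig-7 RNAi and 2.94 FPKM in control RNAi.

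A further fall was yap-1 (F13E6.4), the homologue of the Hippo pathway co-activator YAP, at 0.613 FPKM in sig-7 RNAi and 2.57 FPKM in control RNAi. myrf-2 (F21A10.2), of the myelin regulatory factor family of membrane-bound transcription factors, was at 17 and 40.7 FPKM. dot-1.4 (F55G7.2), of the DOT1 family of histone methyltransferases, was at 5.03 FPKM in sig-7 RNAi and 13.4 FPKM in control RNAi. twf-2 (F38E9.5), a twinfilin gene of actin regulation, was at 5.08 and 13.6 FPKM, and mob-2 (F09A5.4) was at 6.20 and 13.8 FPKM. The 5 rises were led in level by snrp-40.1. cdk-11.2 (ZC504.3), of the CDK11 family of kinases, was at 37 FPKM in sig-7 RNAi and 20.8 FPKM in control RNAi, and snrp-40.1 (F08G12.2), named after a protein of the U5 small nuclear ribonucleoprotein, at 107.3 and 67.8 FPKM. meg-4 (C36C9.1), which encodes a germ granule protein, was at 14.3 FPKM in sig-7 RNAi and 9.35 FPKM in control RNAi (q = 0.0451). enri-2 (T24C2.2) was at 20.7 and 10.8 FPKM, and mfsd-12 (F16H11.1) at 1.23 and 0.437 FPKM. C36E6.1, now fubl-3, had the lowest log2 ratio of all 619 loci without a call, listed at 0 in sig-7 RNAi and at 18.8 FPKM in control RNAi (q = 0.141).

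There were 12 stretches of neighbouring falls and 0 of rises. With 27.6% of the loci fallen and 5.82% risen, runs of falls are the likelier ones from these shares alone, and whether falls lie together more often than their share gives was not tested. A stretch is a run of at least 3 consecutive loci of the rule with the same call, whatever lies between them under a gene name. The 12 stretches hold 41 loci over 23591 to 143617 bp. The longest had 5 loci, from 7501651 to 7637037, with F48E3.6 at 20.5 FPKM in sig-7 RNAi and 52.4 FPKM in control RNAi. F48E3.8 (now chts-1) was at 0.141 and 1.52 FPKM, F46C8.3 at 6.79 and 30.5 FPKM, C44E12.1 at 0.107 and 1.04 FPKM and F26A10.2 at 0.413 and 3.31 FPKM. F48E3.6 and F26A10.2 are annotated over 1493 and 14888 bp, and their deposited loci cover less than that. A stretch of 4 from 12146777 to 12240549 opened with pycr-1 and its neighbour M153.2 (now mfsd-11), at 0.524 FPKM in sig-7 RNAi and 4.66 FPKM in control RNAi, followed by F57G12.1 (4.23-fold lower) and C23H4.6 (3.65-fold lower). Another of 4, from 8080966 to 8136270, held K07E3.4, K07E3.2, K07E3.1 and C02B8.6, which were 2.19-fold to 4.40-fold lower. The most compact, of 3 loci within 23591 bp from 10221122, held C14H10.3, zipt-13 and C14H10.2, 3.05-fold to 5.40-fold lower.

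Close neighbours could also part. Of 319 consecutive pairs at most 20 kb apart and not in a shared deposited locus, both fell in 30, both rose in 4, and 1 fell while 1 rose in 6. Over all the loci 27.6% fell and 5.82% rose. Whether the pair counts depart from what these shares alone give was not tested. Those opposite pairs centred on 4 rises. W05H9.3, the largest rise in log2 ratio among the called loci, lies 13411 bp from the fallen rml-3 and 11045 bp from W05H9.4, which was at 12.4 FPKM in sig-7 RNAi and 21.1 FPKM in control RNAi. C31E10.5, at 32.3 FPKM in sig-7 RNAi and 20.7 FPKM in control RNAi, lies 550 bp from C31E10.6, which was at 4.30 and 7.86 FPKM. C29F7.10 rose 10448 bp from C29F7.3, at 8.33 FPKM in sig-7 RNAi and 15.3 FPKM in control RNAi, which in turn follows C29F7.2, the called locus with the lowest log2 ratio. F08G12.2 (snrp-40.1) rose 11085 bp from F38B2.4, which fell.

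Among the X loci, rises were not called where the deposited locus is shared. Of the 619 loci, 469 were alone in their locus and overlapped no other row, with 143 (30.5%) fallen, 36 risen and a median of -0.49. Of 96 loci that share theirs with 1 to 3 other rows, 23 (24.0%) fell and 0 rose, with a median of -0.68. Of 54 in loci of 5 or more rows, 5 (9.26%) fell and 0 rose, with a median of -0.92. All 36 rises lay in unshared loci. On the autosomes, 370 (14.3%) of 2591 loci of the same rule in unshared loci fell and 523 (20.2%) rose. Of 413 autosomal loci that share theirs with 1 to 3 other rows, 76 (18.4%) fell and 43 (10.4%) rose. Of 1028 in loci of 5 or more rows, 19 (1.85%) fell and 3 (0.29%) rose, so calls were few there too. The stretch with the most rows, from 2014398 to 2276229, holds 90 rows and 15 of the loci, of which 12 were lower in sig-7 RNAi and 1 was called. Positions within a shared stretch are those of the whole stretch, so each of its loci was placed in the bin of its midpoint.

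The other deposited tables gave the same directions for the called loci. In the TSS group table (groups of isoforms that share a start site), 613 of the loci had a tested row, 165 rows fell and 35 rose, against 16.9% and 11% of all tested rows. All 202 rows of called loci had the direction of the gene, and 200 had the same call. In the isoform table, 626 tested rows belonged to 612 loci, 163 fell and 35 rose, against 16.4% and 10.7% of all tested rows. All 209 rows of called loci had the direction of the gene, and 196 the same call. These tables were made from the same reads and are no independent measurement. F47B7.2, not called as a gene at 31 FPKM in sig-7 RNAi and 44.0 FPKM in control RNAi, had isoforms called both ways. An isoform at 5.44 FPKM in sig-7 RNAi and 21.4 FPKM in control RNAi fell (q = 2.04e-05), another at 2.06 FPKM in sig-7 RNAi and listed at 0 in control RNAi rose (q = 0.00999), and the other at 23.5 and 22.7 FPKM was not called.

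At the edge of the rule, the lowest loci inside it were F11C1.11 (1.00 FPKM in sig-7 RNAi, listed at 0 in control RNAi), T08G2.2 (0.370 and 1.01 FPKM in sig-7 RNAi and control RNAi) and F55A4.4 (0.590 and 1.01 FPKM). Just outside were ZK662.5 (0.731 FPKM in sig-7 RNAi and 0.997 FPKM in control RNAi), T27A10.6 (0.166 and 0.990 FPKM) and T24C2.3 (listed at 0 in sig-7 RNAi and at 0.989 FPKM in control RNAi). T27A10.6 and T24C2.3 were called as fallen by the authors, with q of 1.13e-04 and 0.00522, so falls did not end at the floor.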

How the data were processed

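RNA of 2 sig-7 RNAi and 2 control RNAi libraries was measured; groups came from the sample titles. Stranded libraries were made from 1 µg of total RNA after ribosomal RNA depletion, per the labels' protocols. Per the submitters' processing notes, reads were handled with Cuffdiff 2.0.2, Cufflinks 2.1.1, TopHat2 and FastQC on build ce10; how strand was used, the annotation and the parameters are not stated there. The authors deposited 1 pooled FPKM per group for genes, isoforms and TSS groups, with a log2 ratio, a p-value and a q-value adjusted over all tested rows, per the file headers. Infinite log2 ratios are coded as very large numbers, and no fold is given there. A q listed as 0 lies below 1.37e-14.

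Members were found by rule, and positions are 1-based on ce10. Medians, bins of 2 Mb and level classes were computed with Python 3.11.15, pandas 2.3.3 and numpy 2.4.6, with a pseudocount of 1 FPKM, and tested on simulated data. Exons, classes and current names came by sequence name from the WBcel235 annotation; 13 loci had no match. Named loci were the 12 largest called falls and rises, the largest called change of each bin, the 5 highest of each group, the 3 nearest to 1 FPKM on either side and runs of at least 3; a rule on promoters and proteins was not used. Loci, lists and rules were chosen with earlier results of these data known. Alternatives were another pseudocount, floor, scaling, q, table, bin and set of loci.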

Additional observations from a re-analysis of the deposited data

How the results depend on the processing

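No paired analysis was possible because the deposited values are pooled per group, and for the same reason no library could be left out. The median over the loci stayed below 0 in every alternative run. It moved by over 0.1 to -0.69 with a pseudocount of 0.1 FPKM, to -0.41 with a floor of 5 FPKM and to -1.0 with FPKM scaled to the same total. The difference from autosomal loci was -0.93, -0.73 and -0.54 under those settings and -0.61 without a floor. The number of falls was 138 at q under 0.01, 108 of 332 with a floor of 5 FPKM and between 143 and 194 under the other alternatives run. Rises numbered 17 at q under 0.01 and 32 to 37 otherwise. All bin medians stayed below 0 in each alternative of floor, pseudocount, scaling and set of loci, 1 Mb bins and bins by locus start included (100%). Of 3 alternatives added after the data were seen, the TSS group and isoform tables also kept all below 0, while among loci at a mean of 10 to under 50 FPKM 88.9% of bins were, with 2 to 4 Mb at 0.012; the cause was not tested. Of the control level classes 66.7% were below 0 as reported and 33.3% with a floor of 5 FPKM, where the classes from 1 to under 2 (1 locus, 2.83) and from 2 to under 5 (7 loci, 0.87) turned above 0, since that floor keeps low controls only where sig-7 RNAi is high. The class at 50 and above turned to -0.47 with equal totals. The class under 1 was at -0.30 without a floor, -0.81 by the mean and -1.16 by sig-7 RNAi FPKM, and that from 10 to under 50 was at 0.018 by sig-7 RNAi FPKM. Of 185 values of named loci under alternatives, 0 changed sign, which is no check of the directions. Floors and sets of loci leave the value of a locus as it is, and a pseudocount keeps its sign. Equal totals only lower sig-7 RNAi, so they could turn rises alone, and the named rises were the largest ones. Depth is unknown and limits the low and short loci most.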
